A study of Rattus norvegicus with 2 samples.

Results

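The genes described here encode the initiation factors eIF1 to eIF6, the elongation factors eEF1 and eEF2, and the enzymes and binding proteins named after them. They were taken by symbol: every entry of the deposited gene table whose symbol begins with Eif1 to Eif6, Eef1 or Eef2. The rule took 62 of 17202 genes. All 62 reached 1 CPM (counts scaled to library size) in at least 1 library, the level from which a gene was taken as measured, as did 13505 genes of the table, and no member was at 0 counts in either library.

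RNA was sequenced from wild-type primary oligodendrocyte precursor cells (OPCs) of the rat, the glial cells from which myelin-forming oligodendrocytes develop. Cells received 1 µM Aβ, the peptide that accumulates in plaques in Alzheimer's disease, for 2 days in 1 library, and the solvent DMSO in the other. Both samples carry the same treatment text, which names Aβ alone, and the time in DMSO was read from it. The labels call the cells adult in the extraction step and the rats developing in the design, both sample titles carry an unexplained P1, and the animals' age was not settled here. Each group is a single library, and for want of replicates neither tests nor p-values are given. Differences between the libraries carry 95% exact counting intervals, which leave out the variation between cultures.

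The libraries held 15117102 estimated counts with Aβ, against 15019416 with DMSO. All 6 OPC markers examined were detected, with a summed level of 2099 TPM with Aβ and 2033 TPM with DMSO (a level corrected for transcript length and library size). The 4 astrocyte markers summed to 963 TPM with Aβ and 919 TPM with DMSO, most of it from Gfap. The 4 neuronal markers summed to 63.7 and 62.9 TPM in the same order, the 4 microglial markers to 7.36 and 8.04 TPM, and the 4 markers of mature oligodendrocytes to 59.7 and 57.4 TPM. Of the fibroblast and pericyte markers, 3 of 4 were in the table and summed to 2.43 TPM with Aβ and 2.99 TPM with DMSO, with Rgs5 at 0 in the Aβ library. Of the endothelial markers, 1 of 3 was in the table, at 0.21 TPM with Aβ and 0.30 TPM with DMSO. In such bulk RNA, fewer cells of a type and less RNA per cell cannot be told apart.

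Translation of most mRNAs begins when the cap-binding complex eIF4F recruits a small ribosomal subunit that carries the initiator tRNA on eIF2 together with eIF1, eIF1A, eIF3 and eIF5. After the start codon is found, eIF5B joins the large subunit. During elongation eEF1A delivers aminoacyl-tRNAs, eEF2 moves the ribosome along the mRNA, and eIF5A helps at stalling sequences. Stress lowers initiation through kinases that phosphorylate eIF2 alpha, and growth signals raise it by removing the 4E-BP proteins from eIF4E. Mutations in the genes of eIF2B, the exchange factor that recharges eIF2, cause vanishing white matter disease.

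The translation factor genes stood at closely similar levels in both libraries. Together they held 431543 counts with Aβ, against 427643 with DMSO, which is 2.855% of all counts (exact binomial interval 2.846% to 2.863%) and 2.847% (2.839% to 2.856%). Scaled to library size, the summed ratio of Aβ over DMSO was 1.001 (0.997 to 1.005). Without Eef1a1, which took 41.2% of the members' counts with Aβ, against 41.0% with DMSO, the summed ratio was 0.998 (0.992 to 1.003).

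No member differed by 1.2-fold or more with a counting interval that left out a ratio of 1. By the same rule 2.33% of all measured genes were higher and 2.35% lower with Aβ, and of genes with whole counts 1.66% and 1.58%. At 1.5-fold the shares of all measured genes were 0.777% higher and 0.955% lower, and at 2-fold 0.267% and 0.407%, again with no member among them. Every member lay within 1.2-fold in the value itself, as did 88.9% of all measured genes and 99.2% of genes at 50 CPM or more, a level that 48 of the members reached. The whole interval lay within 1.2-fold for 51 members and within 1.5-fold for 61. The exception was Eif4ebp3, a binding protein of eIF4E, with 74 counts with Aβ, against 81 with DMSO.

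Of the 62 genes, 26 lay above a ratio of 1 and 36 below, where 49.7% and 50.3% of all measured genes lay. Their median log2 ratio was -0.014, beside -0.0008 for all measured genes. With the authors' TPM in place of counts, a scale on which the median gene stood at 0.037, 37 members lay above and 25 below. The interval left out 1 on the higher side for 5 members (Eif3a, Eif4b, Eif4g1, Eif4g2 and Eef2), and 6.49% of measured genes did so. It left out 1 on the lower side for 7 (Eif1, Eif1a, Eif4a1, Eif4h, Eif5a, Eef1d and Eef1g), and 6.88% of measured genes did so. All 12 were at 50 CPM or more, where the shares of all genes were 9.33% higher and 9.68% lower. The 12 are 5 and 7 of the 48 members at that level, or 10.4% higher and 14.6% lower. The balance depended on the scaling: 7 were higher and 4 lower with DESeq2 size factors, 6 and 5 with total counts, 8 and 3 with TPM, and 5 and 8 with FPKM. The intervals of Eif4h and Eef1g included 1 with DESeq2 size factors, total counts and TPM, that of Eif1 with DESeq2 size factors and TPM, and that of Eif4a1 with TPM.

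**Figure D1:**
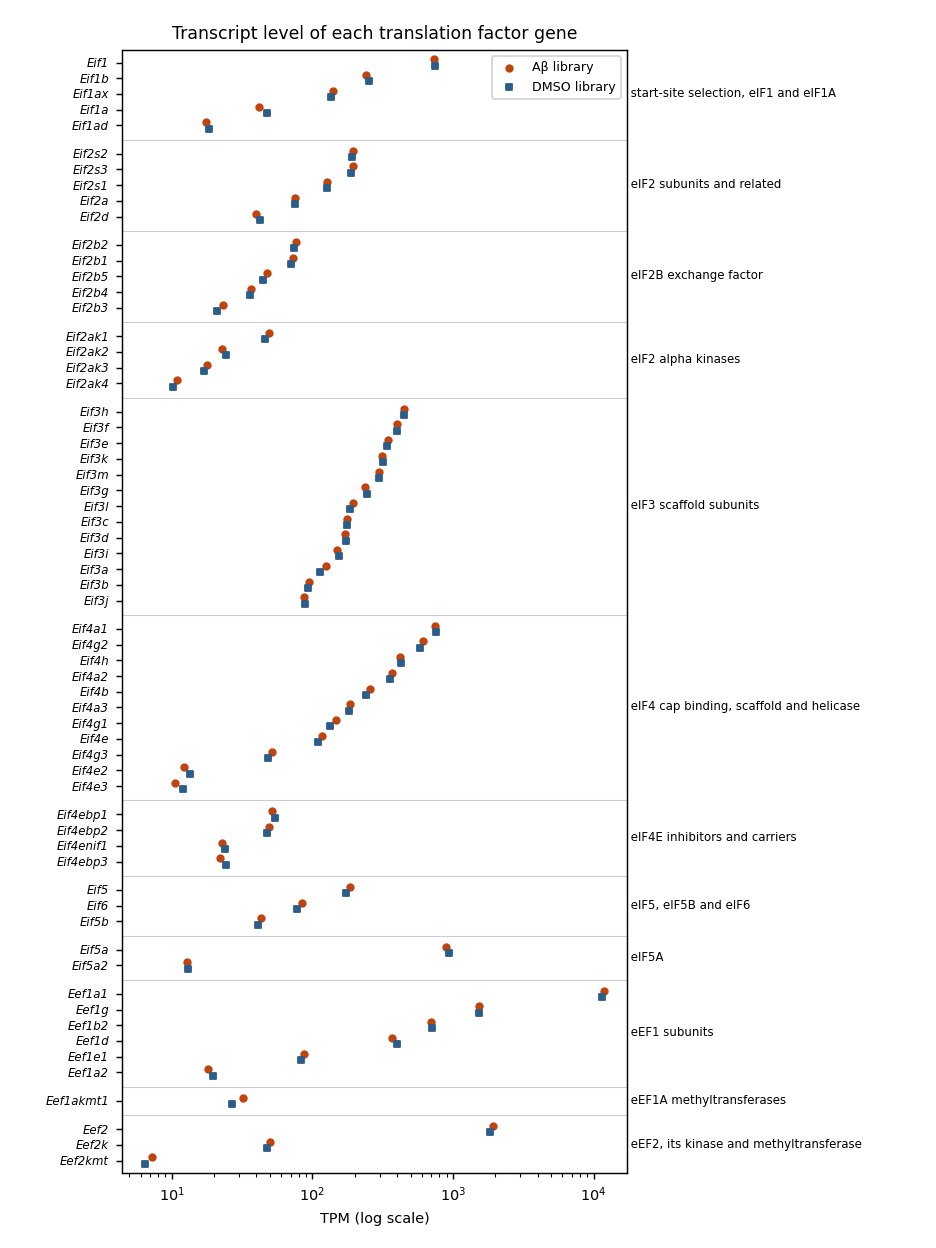
Level of each of the 62 genes in TPM, on a log axis, in the Aβ library (circles) and the DMSO library (squares), with genes grouped by role and ordered by level within a role. Levels span from 7.19 TPM (Eef2kmt) to 11878 TPM (Eef1a1) with Aβ and from 6.41 to 11521 TPM with DMSO, and the symbols of a gene nearly coincide.

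**Figure D2:**
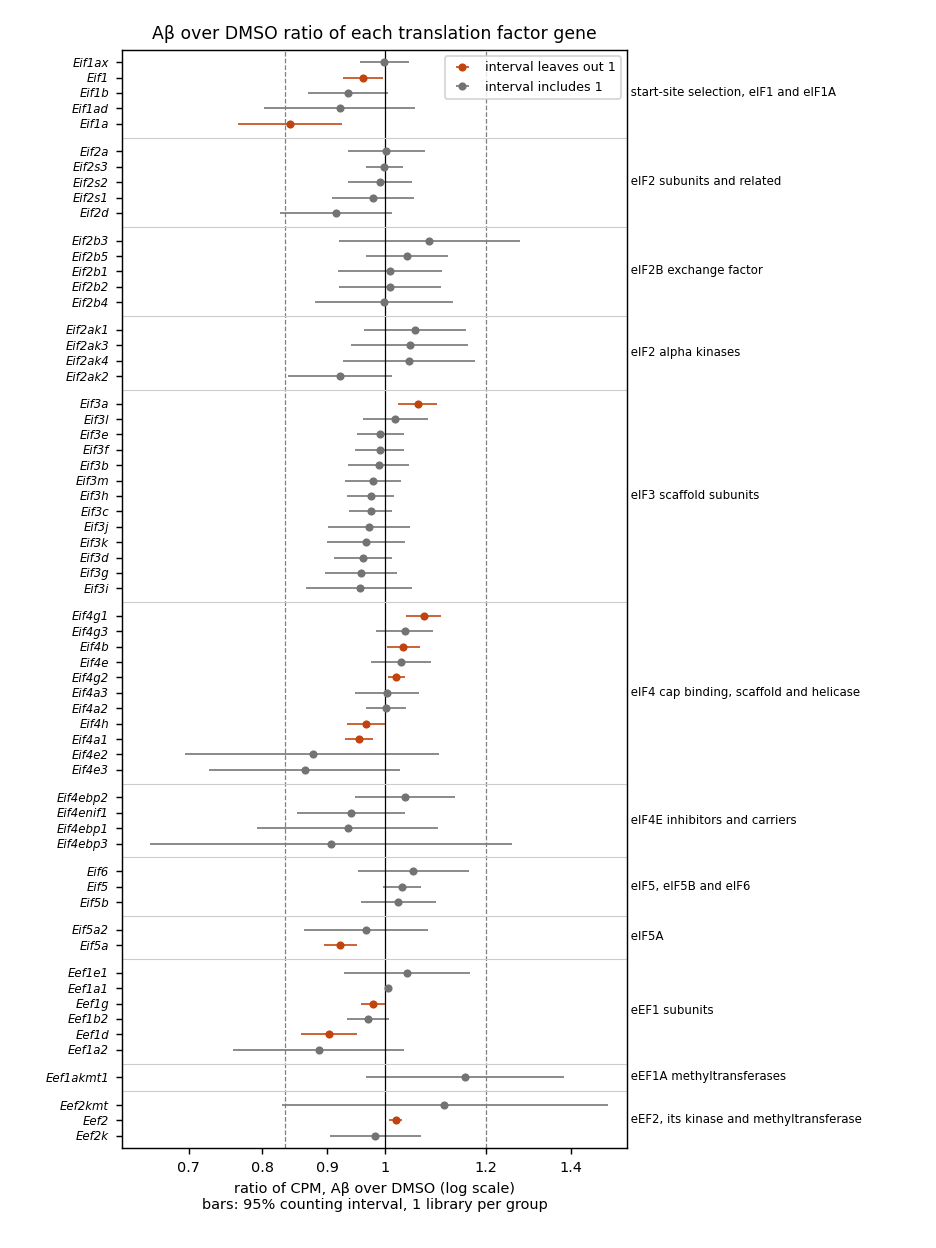
Ratio of CPM, Aβ over DMSO, for each gene on a log axis, with bars for the 95% counting interval and dashed lines at 1.2-fold. The 12 genes in orange have an interval that leaves out 1, and every point lies between the dashed lines.

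Genes with a symbol that begins with Eif1, which form the eIF1 and eIF1A group, had ratios from 0.842 to 0.998. Eif1 encodes the factor that keeps the scanning ribosome from starting at a wrong codon. It had 5873 counts with Aβ, against 6064 with DMSO, for a ratio of 0.961 (0.927 to 0.996). Eif1b, its close relative, had 1444 counts with Aβ, against 1533 with DMSO, for a ratio of 0.934 (0.869 to 1.005). Eif1a, which encodes a form of eIF1A, the factor that holds the small subunit open for scanning, had the lowest ratio of all 62 genes, 0.842 (0.766 to 0.925), from 819 counts with Aβ, against 965 with DMSO. Eif1ax, the X-linked form, had 4072 and 4047 counts and a ratio of 0.998 (0.955 to 1.04). Thus Eif1a made up 22.9% of eIF1A transcripts by TPM with Aβ and 25.8% with DMSO, and Eif1ax made up the rest. Eif1ad, named for its eIF1A domain, had 412 counts with Aβ, against 444 with DMSO. All 5 genes of this group had a log2 ratio below 0, with a median of -0.098, but Eif1ax turned to the other side under some settings. It was at 0.036 with TPM and 0.0036 with DESeq2 size factors, where the medians of all measured genes were 0.037 and 0.0056. With the length trend removed it was at 0.0006, beside -0.0009 for all measured genes. RefSeq names 8 pseudogene copies of Eif1 and 1 of Eif1a, none of which is an entry of the table, and the sources do not say where reads of such copies were counted.

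The ternary complex factor eIF2 had subunit transcripts at closely similar levels in both libraries. Its alpha subunit gene Eif2s1, the target of the stress kinases, had 127 TPM with Aβ and 126 TPM with DMSO (1421 and 1441 counts, ratio 0.978, 0.908 to 1.05). The beta subunit gene Eif2s2 had 195 and 192 TPM (ratio 0.991, 0.935 to 1.05), and the gamma subunit gene Eif2s3 had 193 and 188 TPM (0.998, 0.965 to 1.03). Per length, the beta and gamma genes were therefore 1.54 and 1.52 times the alpha gene with Aβ, and 1.52 and 1.49 times with DMSO. Eif2a and Eif2d, which encode factors that deliver initiator tRNA without eIF2, stood at ratios of 1.00 (0.935 to 1.07) and 0.914 (0.826 to 1.01). Eif2a is a separate gene from that of eIF2 alpha.

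The 5 genes of the eIF2B exchange factor had a median log2 ratio of 0.013, with 4 above 0 and 1 below. Eif2b5, the catalytic subunit gene and the one most often mutated in vanishing white matter disease in humans, had 1421 counts with Aβ, against 1355 with DMSO (47.9 and 44.8 TPM, ratio 1.04, 0.965 to 1.12). Eif2b3 had the highest ratio of the complex, 1.08 (0.919 to 1.28), from 309 and 283 counts. Eif2b1, Eif2b2 and Eif2b4 lay between 0.998 and 1.01. All 5 intervals included 1.

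Of the eIF2 alpha kinases, 3 had a ratio slightly above 1 and the fourth lay below. Eif2ak1, the heme-regulated kinase HRI, had 949 counts with Aβ, against 892 with DMSO, for a ratio of 1.06 (0.962 to 1.16). Eif2ak3, the kinase PERK of the endoplasmic reticulum, had 727 and 690 counts (1.05, 0.940 to 1.16). Eif2ak4, the amino acid sensor GCN2, had 566 and 538 counts (1.04, 0.926 to 1.18). Eif2ak2, the kinase PKR that senses double-stranded RNA and is induced by interferon, had 846 counts with Aβ, against 911 with DMSO (0.921, 0.838 to 1.01). None of these intervals left out 1. By TPM, HRI was the most abundant of the kinases, with 49.0% of their summed level with Aβ and 47.1% with DMSO, and GCN2 the least, with 10.8% and 10.5%. Of their downstream genes, 15 of the 16 fixed for the response to eIF2 alpha phosphorylation were in the table and 14 were measured, of which 7 lay above 0 and 7 below, and their median log2 ratio was 0.0017. The members of that list furthest from 0 were Cebpb, a transcription factor, at 0.765 (0.607 to 0.963) and Chac1 at 0.803 (0.495 to 1.29) on the low side, and Sesn2 at 1.13 (0.977 to 1.32) and Aldh18a1, with fractional counts, at 1.12 (0.999 to 1.27) on the high side. Cebpb was the 1 gene of the list past 1.2-fold with an interval that left out 1. By that rule 2.35% of all measured genes were lower.

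The scaffold eIF3, which binds the small subunit and bridges it to eIF4G, is encoded by 13 genes in the table. Of these, 11 had a log2 ratio below 0 and 2 above, with a median of -0.038, beside -0.0008 for all measured genes. With TPM 7 lay below 0 and the median was -0.0031, on a scale where the median of all measured genes was 0.037. By counts, values below 0 were small, down to -0.067 for Eif3i, and all 11 intervals included 1. Eif3a, the largest subunit, stood apart from the rest with 6358.9 counts with Aβ, against 5949.96 with DMSO, for a ratio of 1.06 (1.02 to 1.10). Its counts were fractional, and its transcript was the longest of the complex, with an effective length of 4.82 kb. The lowest ratio of the complex was that of Eif3i, a core subunit, at 0.954 (0.867 to 1.05) from 836 and 869 counts. Summed over all 13 genes, the ratio was 0.991 (0.977 to 1.005).

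Although they encode subunits of 1 complex, the eIF3 genes differed in level by about as much in each library. Eif3h was highest, at 446 TPM with Aβ and 447 TPM with DMSO, followed by Eif3f at 403 and 398 TPM and Eif3e at 344 and 338 TPM. Eif3j, a loosely bound subunit, was lowest at 87.6 and 88.0 TPM, with Eif3b, which anchors the core, at 94.5 and 93.1 TPM. Eif3h exceeded Eif3j 5.09-fold with Aβ and 5.08-fold with DMSO. The remaining subunits Eif3a, Eif3c, Eif3d, Eif3g, Eif3i, Eif3k, Eif3l and Eif3m lay between.

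Among the genes for eIF4F and its helpers, those that differed beyond counting error went both ways. Eif4g1, the scaffold that joins eIF4E, eIF4A and the poly(A)-binding protein, had the highest ratio of this group, 1.07 (1.04 to 1.11), from 8005.36 counts with Aβ, against 7410.36 with DMSO. Eif4g2 (also called DAP5), a relative that lacks the eIF4E-binding site, had 30336.23 and 29494.87 counts, a ratio of 1.02 (1.004 to 1.04). Eif4g3 had 2961 and 2835 counts (1.04, 0.984 to 1.09). All 3 eIF4G genes thus had ratios above 1, and their transcripts are among the longest of the set, from 4.67 to 5.39 kb of effective length. Eif4b, which stimulates the helicase, had 9111 counts with Aβ, against 8750 with DMSO, for a ratio of 1.03 (1.003 to 1.06).

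The helicase gene Eif4a1, which unwinds mRNA leaders, had 11442 counts with Aβ, against 11911 with DMSO, for a ratio of 0.953 (0.929 to 0.978). Eif4h, a smaller relative of eIF4B, had 6462 and 6638 counts, a ratio of 0.966 (0.933 to 0.999). Eif4a2, the second helicase gene, had 5743 and 5687 counts (1.00, 0.965 to 1.04), and Eif4a3, which belongs to the exon junction complex, had 2314 and 2288 counts (1.00, 0.946 to 1.06). By TPM, Eif4a1 exceeded Eif4a2 2.03-fold with Aβ and 2.14-fold with DMSO.

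The cap-binding protein itself was a minor transcript of the group. Eif4e had 116 TPM with Aβ and 110 TPM with DMSO (2626 and 2532 counts, ratio 1.03, 0.974 to 1.09). Both helicase genes together were at 9.55 times its level with Aβ and 10.2 times with DMSO. Eif4e2 and Eif4e3, which encode cap-binding relatives, were low, at 12.1 and 10.6 TPM with Aβ and 13.5 and 11.9 TPM with DMSO. Their ratios of 0.876 (0.695 to 1.10) and 0.864 (0.726 to 1.03) were the lowest of the group and rested on 287 counts at most in a library. The 3 genes for 4E-BPs, the repressors that compete with eIF4G for eIF4E, summed to 1.06 times the level of Eif4e with Aβ and 1.15 times with DMSO. Eif4ebp1 had 290 counts with Aβ, against 308 with DMSO (0.934, 0.793 to 1.10). Eif4ebp2, the form that prevails in brain, had 973 and 932 counts (1.04, 0.946 to 1.13). By TPM, Eif4ebp1 held 42.1% of the summed level of the 3 genes with Aβ and 43.2% with DMSO, and Eif4ebp2 40.0% and 37.7%. Eif4enif1, which carries eIF4E into the nucleus, had 793 and 837 counts (0.940, 0.852 to 1.04).

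**Figure D3:**
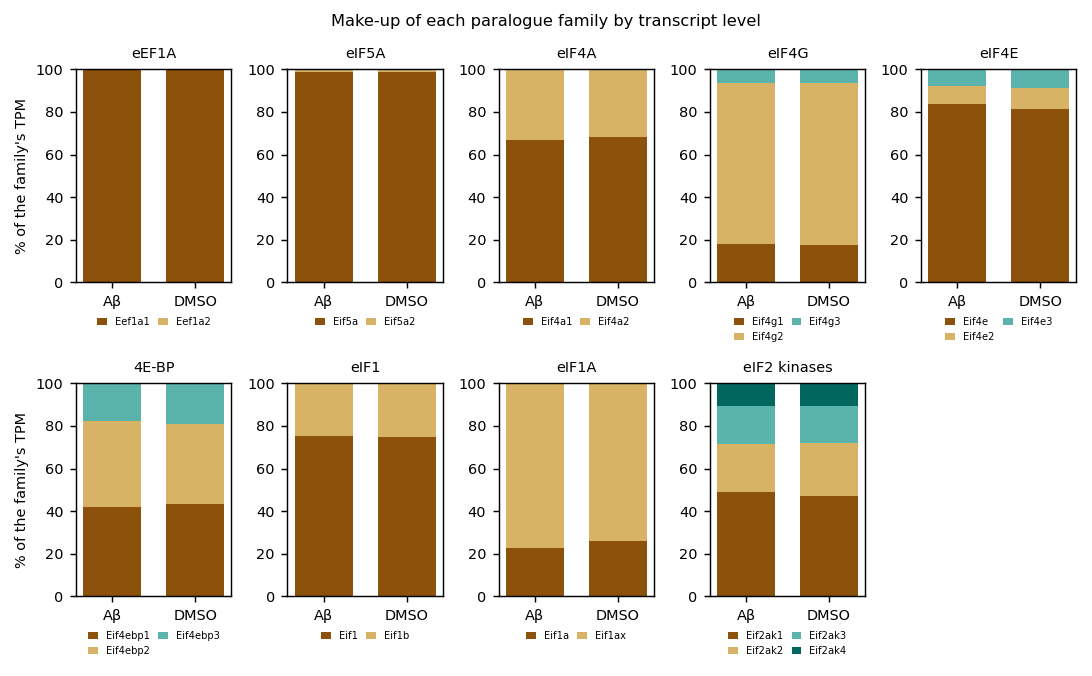
Share of each family's summed TPM held by each of its genes, in percent, in the Aβ library (left bar) and the DMSO library (right bar). The stacks of each pair are nearly the same, with the widest gap for Eif1a in the eIF1A family, at 22.9% and 25.8%.

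Late steps of initiation were represented by Eif5, Eif5b and Eif6, with ratios of 1.03 (0.996 to 1.07), 1.02 (0.957 to 1.10) and 1.05 (0.952 to 1.16). Eif5, which triggers GTP hydrolysis on eIF2, had 6807 counts with Aβ, against 6552 with DMSO. Eif5b, the subunit-joining GTPase, had 1736 and 1681 counts, and Eif6, which keeps the large subunit from joining too early, had 807 and 761. All 3 lay above 1, with a summed ratio of 1.03 (1.002 to 1.06).

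Eif5a, whose product carries the modified residue hypusine and eases peptide bond formation at difficult sequences, was lower with Aβ beyond counting error. It had 8472.89 counts with Aβ, against 9121.89 with DMSO (889 and 942 TPM), a ratio of 0.921 (0.894 to 0.949). Eif5a2, the second gene, supplied 1.42% of the family's TPM with Aβ and 1.35% with DMSO, at a ratio of 0.966 (0.863 to 1.08). The enzymes that make hypusine on eIF5A (Dhps and Dohh) and those for diphthamide, a modified residue of eEF2, formed a list of 9, of which 8 were measured. Of those, 4 lay above 0 and 4 below, and their median log2 ratio was -0.0024. Dph3 stood at 0.959 (0.853 to 1.08), and Dph5 and Dnajc24 had the highest ratios, 1.06 (0.882 to 1.28) and 1.07 (0.846 to 1.34). Dph6, the last enzyme of diphthamide synthesis, was the 1 gene past 1.2-fold with an interval that left out 1. It stood at 0.764 (0.609 to 0.957) from 141 counts with Aβ, against 183 with DMSO. Of all measured genes, 2.35% were lower by that rule.

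Eef1a1, the tRNA carrier, was the member of highest level and ranked 2 by TPM among all genes in both libraries. It had 177812 counts with Aβ, against 175412 with DMSO, or 1.18% and 1.17% of all counts, and a ratio of 1.005 (0.999 to 1.012). Whether its interval left out 1 depended on the scaling: it lay above 1 with DESeq2 size factors, total counts, TPM and the length trend removed, and included 1 with TMM and FPKM. Eef1a2, the form that replaces it in mature neurons and muscle, had 318 counts with Aβ, against 356 with DMSO (18.0 and 19.5 TPM, ratio 0.886, 0.759 to 1.03), so that Eef1a1 exceeded it 660-fold with Aβ and 590-fold with DMSO. The neuronal markers Rbfox3 and Snap25 were at 6.39 and 22.8 TPM with Aβ and at 6.28 and 22.3 TPM with DMSO, and their part in the level of Eef1a2 was not tested. RefSeq names 20 pseudogene copies of Eef1a1 and 16 of Eef1g, the most of any member after those of Eef1a1, and none is an entry of the table.

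The start of the Eef1a1 transcript carries a terminal oligopyrimidine tract, a stretch of pyrimidines behind an initial C through which mTOR controls the translation of ribosomal protein and elongation factor mRNAs. Windows of 30 bases around the annotated start are shown for the genes of eEF1 that hold one, since eEF1 mRNAs are textbook members of this class, and for the members with the highest ratio of all (Eef1akmt1) and of eIF4F (Eif4g1). They run 5′ to 3′ on the transcribed strand, from 10 bases before the start annotated in RefSeq build GRCr8, and capitals mark a C followed by at least 4 pyrimidines.
Eef1a1, chr8:88225050-88225079, minus strand: ttggacgttCTTTTTCgcaacgggtttgcc
Eef1b2, chr9:72074081-72074110, plus strand: ggccggtcccggCCCTTTTTCTCCCTCagc
Eif4g1, chr11:93746348-93746377, minus strand: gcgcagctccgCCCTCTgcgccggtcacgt
Eef1akmt1, chr15:35826902-35826931, minus strand: gatgctcattggCCCCCTCCTTCCggtcgg

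A tract of this kind, beginning within 3 bases of an annotated start and searched on that strand alone, was present in 9 of the 56 members with a promoter entry (16.1%) and in 12.6% of all genes with one. Its median log2 ratio was 0.0078 over those 9 members and -0.015 over the other 47, whereas over all measured genes it was -0.0054 with a tract and 0.0004 without. The 9 lay from Eif1 at -0.058 to Eef1akmt1 at 0.20. Besides the genes shown above, they were Eif1, Eif2a, Eif2ak4, Eif4g3 and Eif5a2. The elongation factor genes Eef1d, Eef1g and Eef2 were not among the 9. Absence from the 9 does not show that a gene lacks a tract. A total of 6 members had no promoter entry, and a tract at a start outside the annotation would be missed. A match is a description of the annotated start only, and control of these mRNAs by mTOR was not tested. No data on translation itself were analysed here.

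The exchange factor that recharges eEF1A is made of eEF1B alpha (Eef1b2), eEF1B delta (Eef1d) and eEF1B gamma (Eef1g), and its genes all lay below 1 when scaled by counts. Eef1d had 2829 counts with Aβ, against 3108 with DMSO (367 and 397 TPM), a ratio of 0.903 (0.858 to 0.9503), the lowest after Eif1a among members whose interval left out 1. Eef1g had 17418.01 counts with Aβ, against 17669.57 with DMSO, for a ratio of 0.978 (0.957 to 0.998), and its TPM was 1523 and 1521. Eef1b2 had 5167 and 5287 counts, a ratio of 0.969 (0.933 to 1.01). Per length, Eef1g exceeded Eef1b2 2.18-fold with Aβ and 2.15-fold with DMSO, and Eef1d 4.15-fold with Aβ and 3.83-fold with DMSO. Eef1e1, which encodes a relative found in the multi-synthetase complex, had 630 and 601 counts (1.04, 0.928 to 1.17).

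Eef1akmt1, a methyltransferase of eEF1A, had the highest ratio of the 62 genes, 1.16 (0.965 to 1.38), from 269 counts with Aβ, against 231 with DMSO. Further eEF1A methyltransferases were listed under older names or a bare identifier and so lay outside the symbol rule. Of these, Mettl10 (Eef1akmt2 in RefSeq) had 298 counts with Aβ, against 301 with DMSO, Mettl21b (Eef1akmt3) 1 count in each, and LOC102551435 (Eef1akmt4) 64 and 61.

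Eef2, the translocase, had 52761 counts with Aβ, against 51379 with DMSO (1914 and 1829 TPM), a ratio of 1.02 (1.006 to 1.03), or a difference of 1.86%. Eef2k, the kinase that inactivates eEF2, had 1155 and 1167 counts (0.982, 0.904 to 1.07). Eef2k was the member whose TPM and counts differed most in ratio: by TPM it was at 49.98 with Aβ and 47.8 with DMSO, and the transcript length implied by the authors' FPKM was 2177 bases with Aβ and 2252 bases with DMSO. Eef2kmt, a methyltransferase of eEF2, had 101 counts with Aβ, against 89.81 with DMSO (1.11, 0.830 to 1.496). Eef1a1 exceeded Eef2 6.21-fold with Aβ and 6.30-fold with DMSO by TPM.

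Counts with a fractional part, which can arise when a quantifier divides reads between entries, were listed for 8 of the 62 genes (12.9%, and 13.4% of all genes in the table). They were Eif2d, Eif3a, Eif3h, Eif4g1, Eif4g2, Eif5a, Eef1g and Eef2kmt, of which Eif3h and Eef2kmt were fractional in the DMSO library only. At 50 CPM or more, the interval left out 1 for 5 of 7 members with fractional counts and for 7 of 41 with whole counts. Among all genes at that level it did so for 28.7% of those with fractional and 17.8% of those with whole counts. Counting intervals narrow as counts rise, and those 5 fractional members had from 6358.9 (Eif3a) to 30336.23 counts (Eif4g2) with Aβ. The part of count depth in these shares was not tested.

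For 4 of the 8, a gene beside them on the chromosome in RefSeq, among 3 on each side, had counts that summed with theirs to a whole number in both libraries, within 0.011. Eif5a with Gps2 summed to 8897 counts with Aβ, against 9563 with DMSO, and the ratio of the sum was 0.923 (0.896 to 0.9499), beside 0.921 for Eif5a alone. Eif3a with Nanos1 summed to 6704 and 6280 counts, a ratio of 1.06 (1.02 to 1.10). Eif2d with Rassf5 summed to 779 and 844 counts (0.915, 0.829 to 1.01), and Eef2kmt with Alg1 to 244 and 216 (1.12, 0.929 to 1.35). With Aβ, Eef2kmt and Alg1 had whole counts (101 and 143), so their fractions were matched in the DMSO library alone. For Eif4g2 the complement was a copy rather than a neighbour: LOC501116 (Eif4g2l1 in RefSeq) had 3.77 counts with Aβ, against 3.13 with DMSO, which made 30340 and 29498 with those of Eif4g2. Entries anywhere in the table also complete these fractions by number alone. Counting the neighbour or copy, there was 1 for Eif5a, 2 for Eif4g2, 5 each for Eif2d and Eif3a and 7 for Eef2kmt. For Eif3h, Eif4g1 and Eef1g no neighbour completed the fraction, although 8, 1 and 7 entries elsewhere did.

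The ratio moved with transcript length. Effective length, as implied by the authors' counts and FPKM, ran from 0.312 kb (Eif4ebp3) to 5.39 kb (Eif4g3) over the members. Of the 16 members under 1 kb, 3 lay above a log2 ratio of 0 and 13 below, with a median of -0.054, and of the 6 members of 4 kb or more, 5 lay above and 1 below, with a median of 0.056. The same bins over all measured genes had medians of -0.026 (1977 genes) and 0.026 (2985 genes). Across the 62 genes, which share 2 libraries and are not independent, log2 ratio and log2 length had a Pearson correlation of 0.255 and a Spearman correlation of 0.326, and across the 5143 genes at 50 CPM or more 0.179 and 0.274.

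With the smooth length trend of all measured genes subtracted, 30 members lay above 0 and 32 below, and their median was -0.0031. The eIF3 median was then -0.0185 with 10 of 13 below 0, and the median of the eIF1 group -0.0705 with 4 of 5 below 0. Intervals still left out 1 for Eif3a, Eif4b, Eif4g1 and Eef2 on the higher side and for Eif1a, Eif4a1, Eif5a and Eef1d on the lower, and Eef1a1 joined the higher ones at a log2 ratio of 0.017. Those of Eif4g2, Eif1, Eif4h and Eef1g then included 1. The part of RNA integrity or fragment size in the length trend was not tested.

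**Figure D4:**
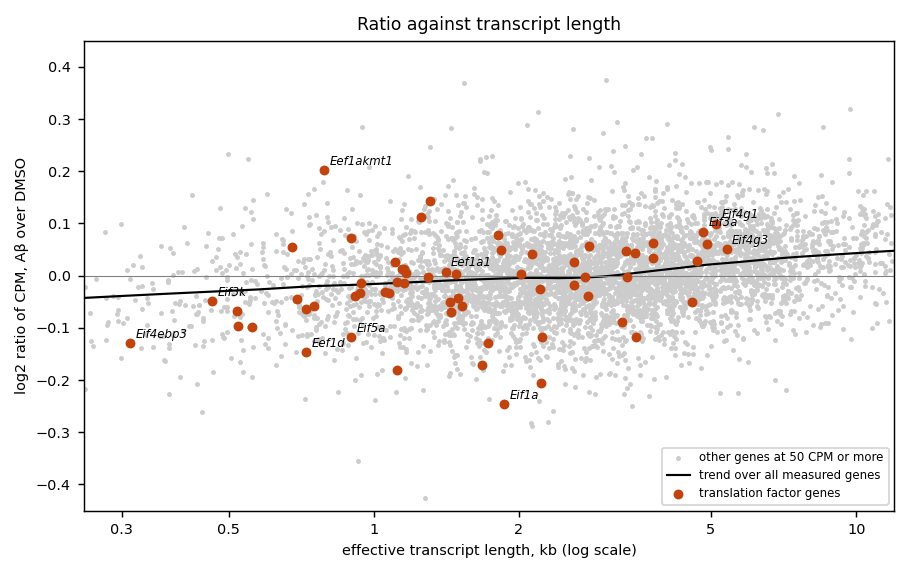
Log2 ratio of CPM, Aβ over DMSO, against effective transcript length in kb on a log axis, for the translation factor genes (orange) and the other genes at 50 CPM or more (grey), with the trend over all measured genes as a line. The trend climbs from left to right, and the short Eef1d and Eif5a lie below it while the long Eif3a and Eif4g1 lie above it (154 of 5095 grey points fall outside the axes).

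Other genes of the translation pathway were taken from lists. Of 12 genes for termination, recycling and rescue, 5 lay above 0 and 7 below, and the median log2 ratio was -0.019. Intervals lay below 1 for 3 of the 12 and above 1 for none, and for 6.88% and 6.49% of all measured genes. The lowest were Gspt1, the release factor eRF3a, at 0.846 (0.792 to 0.905) with fractional counts of 1635.31 with Aβ and 1916.16 with DMSO, and Mcts1, a re-initiation factor, at 0.846 (0.744 to 0.962). The highest were Pelo and Hbs1l, partners in ribosome rescue, at 1.07 (0.924 to 1.25) and 1.05 (0.979 to 1.12). Of 14 genes for poly(A) binding and mRNA control, 7 lay on each side, with a median of 0.0040. Pabpc1, the main poly(A)-binding protein, had 11636 counts with Aβ, against 12335 with DMSO, for a ratio of 0.936 (0.912 to 0.960), and Pabpc4 stood at 0.955 (0.905 to 1.01). Cyfip2, a partner of FMRP, stood at 1.06 (1.03 to 1.10) and Larp4, with fractional counts, at 1.12 (0.907 to 1.39).

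The 18 kinases, phosphatase subunits and regulators upstream of the factors (11 above 0, 7 below) had a median of 0.014, and no interval left out 1. They ranged from Rps6kb2, the kinase S6K2, at 0.850 (0.713 to 1.01) and Mknk1, a kinase of eIF4E, at 0.915 (0.835 to 1.003) to Rptor, the scaffold of mTOR complex 1, at 1.07 (0.983 to 1.17) and the kinase gene Rps6ka3 at 1.08 (0.998 to 1.16). The 11 mitochondrial translation factors had a median of 0.030 with 7 above 0 and 4 below. Their range went from Mtif3 (0.928, 0.777 to 1.11, fractional counts) and Gfm1 (0.942, 0.846 to 1.05) to Mtfmt (1.11, 0.918 to 1.35) and Mtrf1l (1.15, 0.880 to 1.503). The 11 genes for selenocysteine insertion and nascent chains had a median of -0.0087, with 4 above 0 and 7 below. Of these Naca, a chaperone of nascent chains, had 7766 counts with Aβ, against 8102 with DMSO, for a ratio of 0.951 (0.921 to 0.981), and Eefsec, the selenocysteine elongation factor, stood at 0.969 (0.833 to 1.13). Srp54a of the signal recognition particle and Pstk stood at 1.03 (0.963 to 1.11) and 1.03 (0.852 to 1.26). Outside the members, the genes of these lists past 1.2-fold with an interval that left out 1 were Cebpb and Dph6, each lower with Aβ. By the same rule 2.33% of all measured genes were higher and 2.35% lower.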

How the data were processed

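Bulk mRNA libraries, 1 per group, were built with a BGI kit per the labels' protocols. Bowtie2 and build Rnor_6.0 are named in the submitters' processing notes. The sources used here do not give the quantifier, the annotation release or the use of strand. The deposited table holds the authors' estimated counts, TPM and FPKM (both corrected for length and library size, per the file headers). A further 2 columns, named as normalized read counts, were not used.

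Estimated counts were rounded to whole numbers. CPM used TMM effective library sizes (edgeR 4.0.16, R 4.3.3; DESeq2 1.42.0 size factors as an alternative). The log2 ratio is log2((CPM in Aβ + 0.5)/(CPM in DMSO + 0.5)), and low genes appear less different on it than they are. Printed ratios have no pseudocount; their exact 95% Clopper-Pearson intervals, given the summed counts of both libraries, cover counting error only. Genes had to reach 1 CPM in 1 library. The call was 1.2-fold with an interval leaving out 1. Effective length is counts over FPKM and library total. The length trend is a lowess fit (span 0.3, statsmodels 0.14.6). The calling code was tested on simulated data with counting error alone, which does not bear on variation between cultures.

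All 62 symbols and gene IDs matched RefSeq (GRCr8), which gave copies, neighbours and start sequences. Values were fixed for called members, the highest and lowest ratio of each role group, a panel of core factors and members with fractional counts; those of other members were added after they were seen. Of each other list, the genes with the 2 lowest and 2 highest log2 ratios are named. Other lists were given by counts and medians. Members and lists were chosen with earlier results of these data known.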

Additional observations from a re-analysis of the deposited data

How the results depend on the processing

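With 1 library per group, leaving out a replicate was not possible. No paired analysis was possible because each group has a single library. The count of members past 1.2-fold stayed at 0 in either direction under every alternative run (DESeq2 size factors, total counts, TPM, FPKM, pseudocounts 0.1 and 5, no filter, a filter of 10 CPM, whole counts alone, near-copies summed, the length trend removed, and thresholds of 1.5-fold and 2-fold). Some of these runs could not have changed it. Higher thresholds, the filter of 10 CPM and whole counts alone can only remove calls. Without a filter no member is added, as all 62 were measured. Summing near-copies added only 3.77 counts with Aβ and 3.13 with DMSO, to Eif4g2. The members' median log2 ratio lay between -0.019 (FPKM) and 0.021 (TPM), beside 0.037 for all genes with TPM. A median was taken as moved when it left the span between the median lower and median upper limits of its members' intervals. That span is about as wide as the interval of a typical member, so a median could change sign without counting as moved. The members' median did so, from -0.014 in the main run to 0.021 with TPM. A share was taken as moved when it left its binomial interval, and a number of members when it changed by more than 1.5-fold. By these rules, and with the runs that could not change a result included, 171 of the summary values set against an alternative stayed and 4 moved. These were the members' share of the library, at 2.606% with Aβ and 2.562% with DMSO by TPM and at 2.354% and 2.348% from whole counts alone, where 54 members remain. Single members changed sign in 11 cases with TPM, 5 with the length trend removed, 4 with FPKM and 3 with DESeq2 size factors. The interval of Eif4a1 left out 1 under every scaling except TPM. Those of Eif1a, Eif5a and Eef1d (lower) and of Eif3a, Eif4b, Eif4g1 and Eef2 (higher) left out 1 under all scalings, and the sums with neighbours and the shares at 50 CPM or more were chosen after seeing the data. At these counts, intervals lay wholly within 1.2-fold for 51 members and reached past it for the others. The intervals hold counting error only. With 1 library per group, a 1.2-fold effect of Aβ was therefore not excluded for any member.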
